A study of Mus musculus with 16 samples.

Results

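The 45 genes described here encode the Wnt signals of the embryo and the proteins that receive, restrain or report them: 16 Wnt ligands, 14 receptors and co-receptors, 7 secreted inhibitors, 3 R-spondins and 5 feedback targets. They were chosen by gene symbol from the 26411 genes counted, with earlier results of these data known. The shares of all genes given beside their counts are therefore no test of the list. All 45 were among the 15679 genes with enough reads to be tested. RNA from 16 whole mouse embryos at E9.5 (embryonic day 9.5) was sequenced. The 45 genes held between 0.205% and 0.230% of the counts of each embryo.

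Wnt proteins are secreted lipid-modified ligands that bind Frizzled receptors. With the co-receptors LRP5 and LRP6 they stabilise beta-catenin, which enters the nucleus with LEF1 and TCF factors and switches on targets such as *Axin2*, while other Wnts, with WNT5A as the best known, act through ROR2 on cell polarity and elongation without beta-catenin. SFRP proteins and FRZB bind Wnts outside the cell, and DKK1 and DKK2 bind the LRP co-receptors. NOTUM removes the lipid from Wnts, and R-spondins keep Frizzled and LRP proteins at the cell surface. In the midgestation embryo Wnt signals pattern the tail bud, dorsal neural tube, limb buds and somites.

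Embryos were of 4 genotypes, with 4 embryos in each. Wild-type embryos were *Kat6a+/+ Kat6b+/+*. Embryos without KAT6A but with normal *Kat6b*, *Kat6a-/- Kat6b+/+*, are called *Kat6a* null. Those that overexpressed *Kat6b* with normal *Kat6a*, *Kat6a+/+ Tg(Kat6b)*, are called transgenic. Those that both lacked KAT6A and overexpressed *Kat6b*, *Kat6a-/- Tg(Kat6b)*, are called null transgenic. *Kat6a* and *Kat6b* encode related histone acetyltransferases. The null allele is a germline deletion of internal exons of *Kat6a*, carried by every cell of the embryo. *Tg(Kat6b)* adds copies of *Kat6b* on a bacterial artificial chromosome, and all embryos also carried the endogenous *Kat6b* gene and came from a mixed FVB and BALB/c background. Each genotype held 2 female and 2 male embryos. Wild-type embryos came 1 each from litters 801, 803, 2597 and 2598, and *Kat6a* null embryos came from litters 801 and 803. Transgenic embryos came from litters 2597 and 2598, whereas the null transgenic embryos came from litters 483 and 498, which held no other genotype, so genotype and litter cannot be told apart in any comparison that includes them. The comparisons asked which Wnt pathway mRNAs changed without KAT6A and which differed again when *Kat6b* was overexpressed.

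Counts summed to between 14407277 and 45665680 per embryo. Levels are given as CPM, counts scaled to the library size with TMM factors, or, where genes are compared with each other, as RPKM, which also divides by gene length. *Kat6b* mRNA was at 46.2 ± 2.45 CPM (SD, n = 4) in wild-type and 49.1 ± 2.03 CPM (SD, n = 4) in *Kat6a* null embryos. It was at 192.1 ± 29.7 CPM (SD, n = 4) in transgenic and 197.3 ± 4.92 CPM (SD, n = 4) in null transgenic embryos. The *Kat6a* counts could not check the null genotype, because reads were counted over the whole gene (199.3 ± 16.5 CPM in wild-type and 202.5 ± 15.2 CPM in *Kat6a* null embryos, SD, n = 4 each). Markers of neural tube, somite, heart, limb bud and surface ectoderm were present in every embryo, and summed trophoblast and decidua markers lay between 0.495 and 1.28 CPM with *Tpbpa* and *Prl8a2* at 0. Summed limb bud markers were between 60.98 and 67.8 CPM in wild-type and between 43.2 and 54.3 CPM in *Kat6a* null embryos, none of the 4 markers passing the test. They were between 44.6 and 73.7 CPM in transgenic and between 75.8 and 79.2 CPM in null transgenic embryos. The 5 yolk sac endoderm markers summed to between 10.5 and 50.1 CPM in wild-type and between 4.65 and 11.4 CPM in *Kat6a* null embryos, against 1.65 to 43.4 CPM in transgenic and 32.04 to 44.9 CPM in null transgenic embryos. The 6 markers of nephric duct and intermediate mesoderm summed to between 53.5 and 61.4 CPM in wild-type, 46.3 and 54.1 CPM in *Kat6a* null, 53.1 and 55.3 CPM in transgenic and 53.6 and 58.7 CPM in null transgenic embryos. Of these, *Pax2* and *Lhx1* fell without KAT6A (log2 fold changes -0.40 and -0.63, edgeR FDR = 0.044 and 0.0121), and *Lhx1* rose in null transgenic vs. *Kat6a* null embryos (0.63, edgeR FDR = 0.00696). The 4 surface ectoderm markers summed to between 140.4 and 159 CPM in wild-type, 141 and 168 CPM in *Kat6a* null, 131 and 173 CPM in transgenic and 171 and 205 CPM in null transgenic embryos, and *Krt8* and *Krt18* rose in the last group vs. *Kat6a* null embryos (log2 fold changes 0.31 and 0.24). Summed neural tube markers lay between 431.9 and 450.4 CPM in wild-type and between 410.8 and 424.5 CPM in *Kat6a* null embryos. They lay between 453.1 and 497.6 CPM in transgenic and between 400.1 and 419.6 CPM in null transgenic embryos. *Sox1* and *Sox2* fell in null transgenic vs. transgenic embryos (log2 fold changes -0.23 and -0.21). In null transgenic vs. *Kat6a* null embryos the somite marker *Meox1* fell and the tail bud marker *Nkx1-2* rose (-0.21 and 0.65). *Meox1* also fell in null transgenic vs. transgenic embryos (-0.19, edgeR FDR = 0.0158). In null transgenic vs. wild-type embryos *Meox1* fell (-0.19, edgeR FDR = 0.0239) and *Krt18* rose (0.31, edgeR FDR = 0.0213), and no other marker passed. In whole embryos, fewer cells of a type and less RNA per cell cannot be told apart, and the part of these differences in the results was not tested.

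Promoter sequences show where transcription of the genes that moved begins. RefSeq promoters of GRCm38.p6, each running from 250 bases before to 50 bases after a transcript start, were available for 31 of the 45 genes. *Fzd2*, *Fzd3*, *Fzd6*, *Fzd8*, *Lrp5*, *Lrp6*, *Wnt5a*, *Wnt7b*, *Wnt10a*, *Sfrp1*, *Dkk3*, *Rspo2*, *Rspo3* and *Notum* had no entry. The 4 stretches printed belong to an inhibitor and a receptor whose mRNA fell without KAT6A (*Sfrp2*, *Fzd4*) and to an inhibitor and a receptor whose mRNA rose with the transgene (*Dkk2*, *Fzd7*). They are the genes past the test in these comparisons that had a single entry with at least 100 bases clear of annotated exons. The start of *Dkk2* in RefSeq lies inside the span that GENCODE gives the gene. Each printed sequence is the longest stretch within the 250 bases before the start that holds no annotated exon, and was placed on GRCm39 by its single exact match. All 4 are on the plus strand and read 5′ to 3′. Capitals mark CG dinucleotides, the TATA box letters (TATAAA), and TCF/LEF-type words on either strand. These words, of a kind that TCF and LEF factors bind, were CTTTGAA and CTTTGAT. The same words ending in TA (CTTTGTA) and in TT (CTTTGTT) were also counted.
Sfrp2, chr3:83673378-83673480: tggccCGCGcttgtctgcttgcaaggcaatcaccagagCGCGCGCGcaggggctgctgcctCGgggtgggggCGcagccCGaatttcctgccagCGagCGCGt
Fzd4, chr7:89053431-89053562: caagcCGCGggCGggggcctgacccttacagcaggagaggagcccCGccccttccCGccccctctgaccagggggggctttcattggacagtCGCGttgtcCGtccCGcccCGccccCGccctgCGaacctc
Fzd7, chr1:59521056-59521268: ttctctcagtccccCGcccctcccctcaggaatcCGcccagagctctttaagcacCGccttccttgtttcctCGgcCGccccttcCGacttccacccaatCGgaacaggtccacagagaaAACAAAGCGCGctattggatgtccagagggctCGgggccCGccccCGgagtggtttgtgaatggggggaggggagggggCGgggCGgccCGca
Dkk2, chr3:131790825-131791042: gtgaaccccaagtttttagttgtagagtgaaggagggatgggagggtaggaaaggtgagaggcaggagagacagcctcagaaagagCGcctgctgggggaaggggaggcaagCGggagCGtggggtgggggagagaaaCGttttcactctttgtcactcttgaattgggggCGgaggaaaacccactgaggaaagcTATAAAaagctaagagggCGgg
The *Sfrp2* and *Fzd4* stretches each held 12 CG dinucleotides, in 103 and 132 bases, with 70.9% and 73.5% of bases G or C. The *Fzd7* stretch held 15 CG dinucleotides in 213 bases and 1 TCF/LEF-type word, which on this strand reads AACAAAG and begins 130 bases before the start. The *Dkk2* stretch held 6 CG dinucleotides in 218 bases and TATAAA beginning 32 bases before the start. Over the whole 250 bases, 38 promoters of the 31 genes had a median of 21 CG dinucleotides, against 15 for the promoters of all tested genes. A TCF/LEF-type word lay in 5 of the 38 (13.2%), against 10.4% of the promoters of tested genes and 14.8% of all 32851 promoters in the table. TATAAA, read on the transcribed strand only, lay in 4 of the 38 (10.5%), against 4.06% and 7.59%. None of the 5 promoters with an entry among the 7 genes lower without KAT6A held either word, which says only that these letters are not in those windows.

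In wild-type embryos the most abundant mRNAs of the pathway were 2 inhibitors and 3 receptors. *Sfrp2* mRNA was at 64.8 ± 2.98 RPKM and *Sfrp1* mRNA at 58.5 ± 1.49 RPKM, followed by the receptors *Fzd2* (53.8 ± 1.42), *Fzd7* (38.9 ± 0.716) and *Fzd10* (30.9 ± 1.62 RPKM, SD, n = 4 each). These 5 neighbours in the order did not overlap between embryos. Below them, from the target *Tcf7* at 23.5 RPKM to *Nkd1* at 14.9 RPKM, each gene overlapped the next. The highest ligand was *Wnt5a* at 13.1 ± 0.961 RPKM, and its range overlapped that of *Wnt6* at 10.2 ± 1.49 RPKM (SD, n = 4). The other neighbours overlapped down to the ligand *Wnt11* at 1.54 RPKM, except that *Wnt11*, *Wnt9b* (0.724 ± 0.0575 RPKM) and *Wnt10a* (0.226 ± 0.0604 RPKM, SD, n = 4) were separate at the lower end. *Wnt10a* had as few as 7 counts in an embryo, which limits what could be detected for it.

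**Figure D1:**
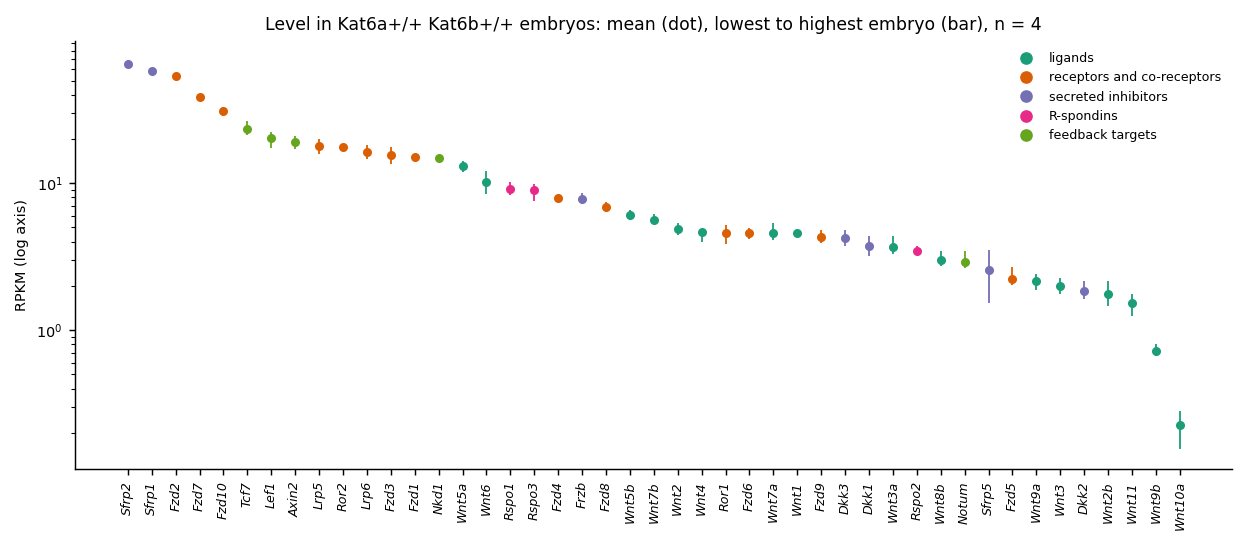
RPKM of the 45 genes in the 4 wild-type embryos on a log axis, highest first, coloured by role, with the mean as a dot and the lowest to the highest embryo as a bar. *Sfrp2* and *Sfrp1* (64.8 and 58.5 RPKM) lead, and *Wnt10a* (0.226 RPKM) is lowest.

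Without KAT6A, mRNAs of 1 ligand, 2 receptors, 3 secreted inhibitors and 1 R-spondin fell, from *Sfrp1* (by 14.9%) to *Fzd4* (by 19.9%), while most of the pathway gave no call. In *Kat6a* null vs. wild-type embryos, 8 of the 45 genes passed an edgeR FDR of 0.05 (the Benjamini-Hochberg adjusted p-value over all tested genes), against 1.88% of all tested genes. Of these, 7 fell (*Sfrp1*, *Sfrp2*, *Frzb*, *Wnt5a*, *Fzd4*, *Fzd10* and *Rspo1*), where 0.938% of all genes fell. Only *Notum* rose, where 0.944% of all genes rose. The 4 embryos of each genotype did not overlap for 10 genes that were lower (the 7 that fell, *Fzd1*, *Fzd7* and *Dkk2*), against 4.01% of all tested genes. They did not overlap for 2 that were higher (*Notum* and *Nkd1*), against 3.96%. The median log2 fold change was -0.06 over the 45 genes and 0.0033 over all tested genes. With the transgene, in null transgenic vs. *Kat6a* null embryos, 9 genes passed, against 7.14% of all genes, and all 9 rose, where 3.39% of all genes rose. They were *Wnt5a*, *Fzd4*, *Fzd7*, *Fzd10*, *Lrp5*, *Sfrp1*, *Frzb*, *Dkk2* and *Lef1*, and for 8 of them (not *Frzb*) every null transgenic embryo was above every *Kat6a* null embryo. In all, 11 of the 45 genes did not overlap in that direction, against 7.29% of all tested genes. In the other direction 2 did not overlap (*Wnt7b* and *Nkd1*), against 7.94%. The median log2 fold change was 0.12 against -0.0049. The comparisons share the *Kat6a* null embryos, and a low value there enters both.

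Litter bears on the first comparison. Litter was made a block in place of the surrogate variables, which are covariates estimated from the data for unwanted variation. This fit held the 12 embryos of the 3 genotypes that share litters. In it, no gene of the 45 passed for *Kat6a* null vs. wild-type embryos, and 18 of 15533 genes passed in all. The log2 fold changes of the 8 genes kept their signs there, from -0.36 for *Rspo1* to 0.48 for *Notum*. *Sfrp1* and *Sfrp2* had the lowest edgeR FDR, 0.0615. Within litters the signs follow from groups that do not overlap, so only sizes are given, for 2 *Kat6a* null embryos against 1 wild-type littermate. Over the 7 genes that fell, the log2 ratio ran from -0.16 (*Wnt5a*) to -0.46 (*Rspo1*) in litter 801 and from -0.14 (*Frzb*) to -0.33 (*Sfrp2*) in litter 803. In litter 801 the null embryos were female and the wild-type embryo male, and in litter 803 all were male. Between embryos of the same sex it ran from -0.20 (*Sfrp1*) to -0.47 (*Frzb*) in females and from -0.15 (*Frzb*) to -0.37 (*Rspo1*) in males. The null females came from litter 801 and the wild-type females from litters 2597 and 2598, so the female ratios cannot be told apart from litter. The null males came from litter 803 and the wild-type males from litters 801 and 803.

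**Figure D2:**
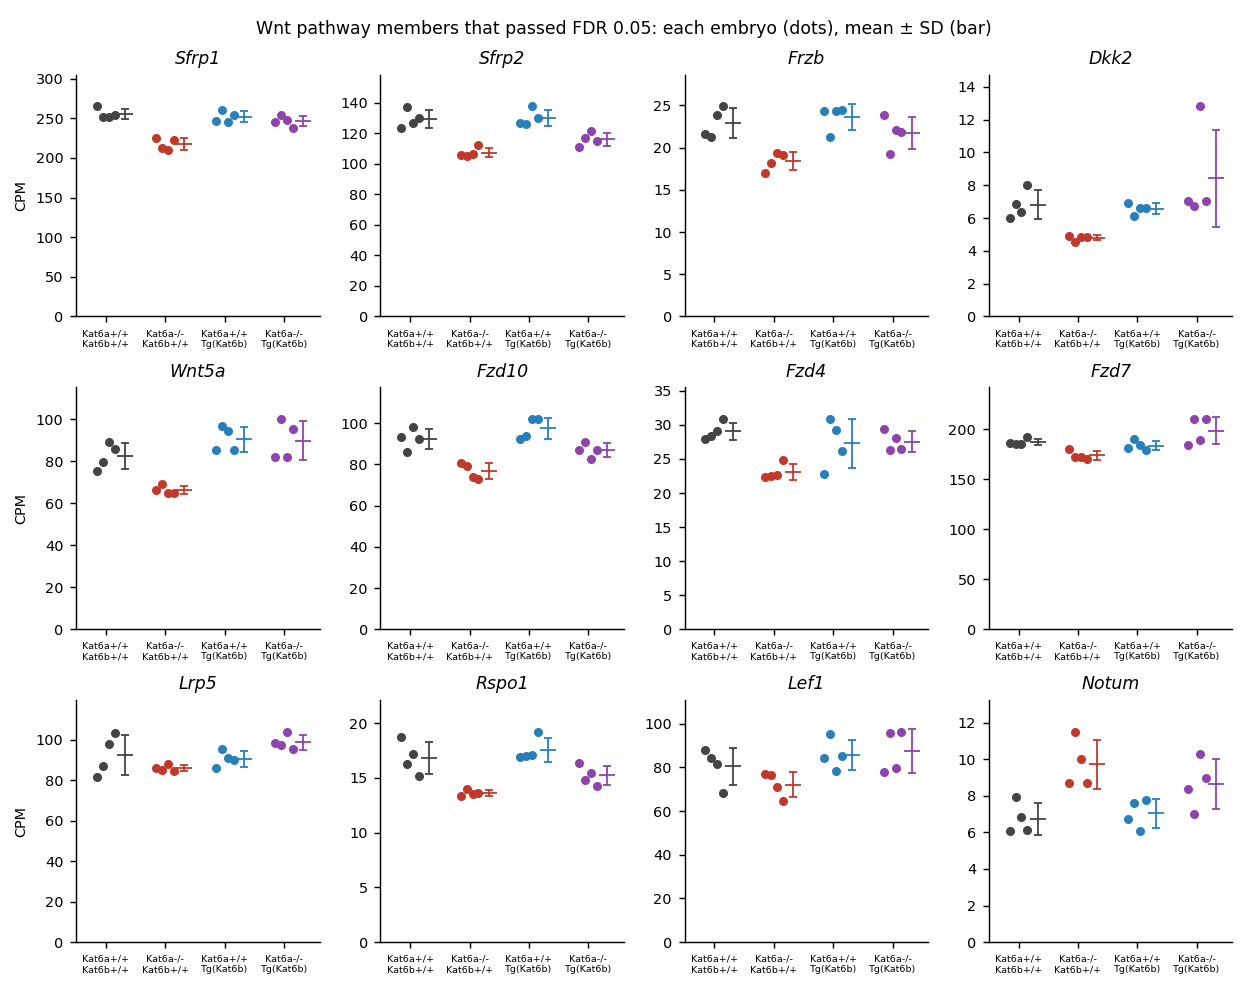
CPM of the 12 genes that passed an edgeR FDR of 0.05 in *Kat6a* null vs. wild-type or null transgenic vs. *Kat6a* null embryos, with each embryo as a dot and the mean ± SD (n = 4) as a bar, on axes that start at 0. The *Kat6a* null embryos are the lowest group for 11 of the 12 genes by mean, and the highest for *Notum*.

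Among the 16 ligands, *Wnt5a* was the only one that passed in edgeR in either comparison. WNT5A directs cell movement and outgrowth of the limb, tail and other outgrowing structures. Its mRNA was at 75.4, 79.8, 89.0 and 85.7 CPM in the 4 wild-type embryos and at 66.2, 68.9, 64.9 and 64.9 CPM in the *Kat6a* null embryos. It was at 85.1, 96.5, 94.5 and 85.2 CPM in transgenic and at 82.0, 100.04, 81.8 and 95.1 CPM in null transgenic embryos. All 4 *Kat6a* null embryos lay below the other 12, which overlapped with each other. The log2 fold change was -0.32 ± 0.05 (SE) without KAT6A (edgeR FDR = 0.00216), a decrease of 19.7% in the fitted level, and 0.43 ± 0.05 (SE) with the transgene on that background (edgeR FDR = 9.58e-05). *Wnt5a* (GRCm39 chromosome 14, 28226495 to 28249405, plus strand) has 4.46% of its exon bases under an annotated gene on the opposite strand, and the strand setting of the counting is not given in the sources used here. Summed limb bud markers were also lowest in *Kat6a* null embryos by mean, and *Tbx4*, *Tbx5* and *Pitx1* rose in null transgenic vs. *Kat6a* null embryos (log2 fold changes 1.02, 0.66 and 0.91). Their part in the *Wnt5a* result was not tested.

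The other 15 ligands gave no call in the main edgeR fit of these comparisons, and their log2 fold changes without KAT6A ran from -0.21 (*Wnt9a*) to 0.26 (*Wnt6*). *Wnt6*, a ligand of surface ectoderm and somite borders, came nearest, at 17.5, 25.0, 20.5 and 21.3 CPM in wild-type and 27.9, 26.2, 23.8 and 23.5 CPM in *Kat6a* null embryos, which overlapped (edgeR FDR = 0.0527). DESeq2 called *Wnt6*, as did edgeR when every gene with at least 1 count was tested. The ligand total lay within a narrow range, at 68.7 ± 3.34 summed RPKM in wild-type, 66.8 ± 2.58 in *Kat6a* null, 71.7 ± 0.422 in transgenic and 71.3 ± 3.30 in null transgenic embryos (SD, n = 4 each). *Wnt5a* made up between 17.9% and 20.3% of it in wild-type and between 15.2% and 16.1% in *Kat6a* null embryos. Its share was between 18.8% and 21.5% in transgenic and between 18.7% and 21.1% in null transgenic embryos. *Wnt7b*, a ligand of epithelia and neural tube, was lower in null transgenic embryos by estimate, at 20.01, 19.78, 21.70 and 19.97 CPM against 23.2, 23.9, 25.0 and 27.5 CPM in wild-type embryos. The groups did not overlap, but the log2 fold change of -0.24 ± 0.08 (SE) did not pass (edgeR FDR = 0.176). The *Kat6a* null embryos, with *Wnt7b* at 25.7, 22.4, 25.1 and 24.0 CPM, also lay above all null transgenic embryos. *Wnt2*, a ligand of mesoderm and the early heart and vessels, was at 14.6, 13.0, 12.3 and 12.1 CPM in null transgenic embryos and at 9.90, 10.5, 8.63 and 8.31 CPM in *Kat6a* null embryos, with no overlap but without passing the test (log2 fold change 0.44 ± 0.26, SE, edgeR FDR = 0.340). When only the null transgenic and *Kat6a* null embryos were fitted, without surrogate variables, edgeR called *Wnt2* (higher) and *Wnt7b* (lower). Leaving out replicate 3 of the transgenic embryos also gave both calls. That replicate had *Wnt2* at 3.96 CPM, against 10.4 to 12.5 CPM in its group, and also had the lowest summed heart (230.4 CPM) and yolk sac endoderm (1.65 CPM) markers of all 16 embryos.

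**Figure D3:**
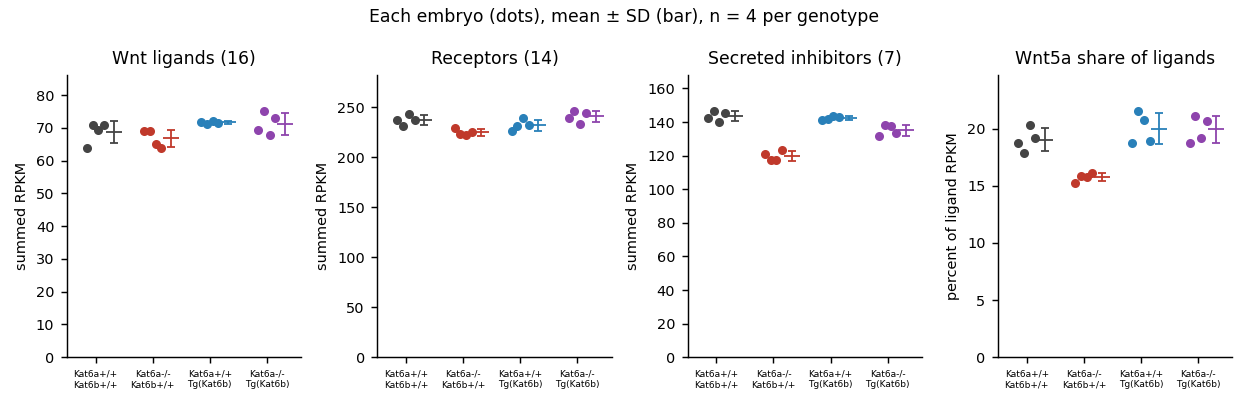
Summed RPKM of the ligands, of the receptors and co-receptors and of the secreted inhibitors, and *Wnt5a* as a percentage of the ligand sum, with each embryo as a dot and the mean ± SD (n = 4) as a bar. The inhibitor sum is between 117.3 and 123.6 RPKM in the 4 *Kat6a* null embryos and between 131.5 and 146.4 RPKM in the other 12.

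Of the 14 receptors and co-receptors, *Fzd4* and *Fzd10* fell without KAT6A, and *Fzd4*, *Fzd7*, *Fzd10* and *Lrp5* rose with the transgene on the null background. FZD10 is a Frizzled of the dorsal neural tube and limb. Its mRNA was at 93.0, 86.2, 98.0 and 92.3 CPM in wild-type embryos and at 80.5, 79.2, 73.9 and 73.0 CPM in *Kat6a* null embryos. It was at 92.5, 93.6, 102.0 and 102.0 CPM in transgenic and at 87.1, 90.7, 82.4 and 86.8 CPM in null transgenic embryos. The *Kat6a* null embryos were again below the other 12 (log2 fold change -0.27 ± 0.04, SE, edgeR FDR = 0.00144, vs. wild type), and with the transgene the log2 fold change was 0.19 ± 0.04 (SE, edgeR FDR = 0.0134). Opposite-strand gene *Fzd10os* covers 30.6% of the exon bases of *Fzd10* (chromosome 5, 128677908 to 128681157), so reads of the pair could be mixed if strand was not used. Of the 7 dorsal neural tube markers, *Zic2* fell without KAT6A (log2 fold change -0.27) and the others did not pass. By estimate *Lmx1a*, *Pax3*, *Msx1* and *Olig3* were lower (-0.27, -0.19, -0.18 and -0.13), and *Zic1* and *Gdf7* were higher (0.08 and 0.02). With the transgene *Msx1* rose and *Zic1* fell (0.23 and -0.19). Their sum was between 315 and 335 CPM in wild-type, 301 and 319 CPM in *Kat6a* null, 324 and 373 CPM in transgenic and 280.4 and 324 CPM in null transgenic embryos, and its part in the *Fzd10* result was not tested.

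FZD4 is the Frizzled best known from blood vessel growth. Its mRNA was at 27.9, 28.4, 29.1 and 30.8 CPM in wild-type embryos and at 22.3, 22.5, 22.7 and 24.8 CPM in *Kat6a* null embryos, with no overlap (log2 fold change -0.32 ± 0.07, SE, edgeR FDR = 0.0225). In null transgenic embryos it was at 29.4, 26.3, 28.1 and 26.4 CPM, above every *Kat6a* null embryo (log2 fold change 0.30 ± 0.07, SE, edgeR FDR = 0.0191). Transgenic embryos spread from 22.8 to 30.9 CPM and overlapped every other genotype. The call without KAT6A was lost in 4 of 11 alternative analyses, and the call with the transgene in 3 of 10. No annotated exon on the opposite strand overlaps *Fzd4* (chromosome 7, 89053563 to 89062342), and its promoter stretch is the CG-rich one printed above.

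FZD7 is a broadly used Frizzled, and LRP5 is a co-receptor for beta-catenin signalling. *Fzd7* was at 185.6, 185.1, 185.1 and 192.1 CPM in wild-type, 180.5, 172.4, 172.4 and 170.0 CPM in *Kat6a* null, and 184.3, 210.0, 189.4 and 209.9 CPM in null transgenic embryos. Its log2 fold change was -0.11 ± 0.03 (SE, edgeR FDR = 0.102) without KAT6A, which did not pass although the embryos did not overlap, and 0.17 ± 0.03 (SE, edgeR FDR = 0.0055) with the transgene. *Lrp5* was at 81.5, 87.1, 97.7 and 103.3 CPM in wild-type and 85.9, 85.0, 88.1 and 84.7 CPM in *Kat6a* null embryos, within the wild-type range. In null transgenic embryos it was at 98.2, 97.2, 103.8 and 95.5 CPM, above all *Kat6a* null embryos (log2 fold change 0.24 ± 0.04, SE, edgeR FDR = 0.00303). It also rose in null transgenic vs. transgenic embryos, which were at 85.8, 95.2, 90.7 and 89.8 CPM (log2 fold change 0.19 ± 0.05, SE, edgeR FDR = 0.0287). Both *Lrp5* differences involve genotypes from separate litters and cannot be told apart from litter, and the second call was lost in 6 of 10 alternative analyses.

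The remaining 10 receptors and co-receptors had log2 fold changes from -0.24 (*Fzd5*) to 0.08 (*Fzd9*) without KAT6A. *Fzd2*, the most abundant receptor, was at 0.04, and the ROR receptors of WNT5A were at 0.04 (*Ror1*) and -0.06 (*Ror2*). The summed receptor level was 236.9 ± 5.13 RPKM in wild-type, 224.7 ± 3.39 in *Kat6a* null, 231.9 ± 5.53 in transgenic and 240.6 ± 5.71 in null transgenic embryos (SD, n = 4 each). *Fzd3* and *Lrp6* were lowest in replicate 1 of the transgenic embryos, at 141.6 and 117.4 CPM. In that library long genes as a whole were also low, with a median log2 shift of -0.27 against the other embryos of its genotype. In transgenic vs. wild-type embryos neither gene passed in edgeR, whereas DESeq2 called *Fzd3* (lower).

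All 7 secreted inhibitors were lower in *Kat6a* null than in wild-type embryos by estimate, with a median log2 fold change of -0.27 against 0.0033 for all tested genes, and *Sfrp1*, *Sfrp2* and *Frzb* passed the test. With the transgene on the null background all 7 estimates were positive, with a median of 0.23, and *Sfrp1*, *Frzb* and *Dkk2* passed. SFRP1 and SFRP2 share a Frizzled-like domain and sequester Wnts. *Sfrp1* was at 265.3, 251.9, 251.6 and 253.6 CPM in wild-type and at 225.4, 212.9, 210.0 and 222.8 CPM in *Kat6a* null embryos. It was at 247.1, 261.0, 245.7 and 253.8 CPM in transgenic and at 245.5, 254.5, 248.0 and 237.9 CPM in null transgenic embryos. The *Kat6a* null embryos were below all others, with a log2 fold change of -0.23 ± 0.03 (SE, edgeR FDR = 0.000653) vs. wild type and of 0.17 ± 0.04 (SE, edgeR FDR = 0.00579) with the transgene.

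*Sfrp1* lies on chromosome 8 (GRCm39, 23901263 to 23939648), 468.0 kb beyond the end of *Kat6a* itself. Of 21 tested genes within 1 Mb of *Kat6a*, 3 passed in *Kat6a* null vs. wild-type embryos, and all 3 were lower: *Sfrp1*, *Smim19* (log2 fold change -0.66) and *Nek3* (-1.26). Of all tested genes, 1.88% passed in this comparison and 0.938% passed and were lower. With the transgene, still on the *Kat6a* null allele, the log2 fold changes of *Smim19* and *Nek3* were 0.15 (edgeR FDR = 0.343) and 0.12 (edgeR FDR = 0.568), whereas *Sfrp1* passed. The part of chromosomal linkage to the null allele in the *Sfrp1* difference was not tested. No annotated exon on the opposite strand overlaps *Sfrp1*.

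*Sfrp2* was at 123.8, 137.6, 126.8 and 130.4 CPM in wild-type and at 106.0, 105.2, 106.2 and 112.2 CPM in *Kat6a* null embryos (log2 fold change -0.27 ± 0.04, SE, edgeR FDR = 0.000884). It was at 126.7, 126.4, 137.9 and 130.1 CPM in transgenic embryos, overlapping the wild-type embryos, and at 111.4, 116.9, 121.5 and 114.7 CPM in null transgenic embryos. The last group lay below all wild-type and all transgenic embryos and overlapped the *Kat6a* null embryos. *Sfrp2* was the only gene of the 45 that fell in null transgenic vs. transgenic embryos (log2 fold change -0.17 ± 0.04, SE, edgeR FDR = 0.0346), a call kept in 6 of 16 fits that each left out 1 embryo. Its log2 fold change was -0.16 ± 0.04 (SE, edgeR FDR = 0.0813) vs. wild type and 0.11 ± 0.04 (SE, edgeR FDR = 0.123) vs. *Kat6a* null embryos. Annotated genes on the opposite strand cover 21.0% of the exon bases of *Sfrp2*.

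FRZB, also called SFRP3, is a Wnt antagonist of skeletal precursors. *Frzb* was at 21.6, 21.2, 23.8 and 24.9 CPM in wild-type and at 17.0, 18.1, 19.4 and 19.1 CPM in *Kat6a* null embryos, with no overlap (log2 fold change -0.30 ± 0.06, SE, edgeR FDR = 0.0178). In null transgenic embryos it was at 23.8, 19.2, 22.1 and 21.9 CPM, where the lowest embryo overlapped the null group (log2 fold change 0.30 ± 0.07, SE, edgeR FDR = 0.00971). DKK2 binds LRP5 and LRP6. *Dkk2* was at 6.01, 6.85, 6.38 and 8.03 CPM in wild-type and at 4.92, 4.56, 4.85 and 4.85 CPM in *Kat6a* null embryos, a separation that did not pass (log2 fold change -0.49 ± 0.16, SE, edgeR FDR = 0.127). In null transgenic embryos it was at 7.06, 6.71, 12.8 and 7.05 CPM, all above the null embryos (log2 fold change 0.84 ± 0.16, SE, edgeR FDR = 0.00375). Without replicate 3 of that genotype, at 12.8 CPM, the log2 fold change was 0.56 and the call held (the largest edgeR FDR on leaving out any 1 embryo was 0.016). The other inhibitors, *Dkk1*, *Dkk3* and *Sfrp5*, had log2 fold changes of -0.14, -0.24 and -0.68 without KAT6A and of 0.18, 0.23 and 0.42 with the transgene, none past the edgeR test. *Sfrp5* without KAT6A was called by DESeq2, and by edgeR when 10 counts were required in every embryo. With the transgene edgeR called it when only the genotypes compared were fitted. The *Frzb* call without KAT6A was lost in 5 of 11 alternative analyses and with the transgene in 4 of 10. Summed inhibitor level was 143.5 ± 3.01 RPKM in wild-type, 119.7 ± 3.04 in *Kat6a* null, 142.3 ± 1.07 in transgenic and 135.0 ± 3.18 in null transgenic embryos (SD, n = 4 each). *Sfrp1* and *Sfrp2* made up 85.9%, 86.4%, 86.2% and 84.7% of these sums on average, so the sums mostly restate those 2 genes.

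**Figure D4:**
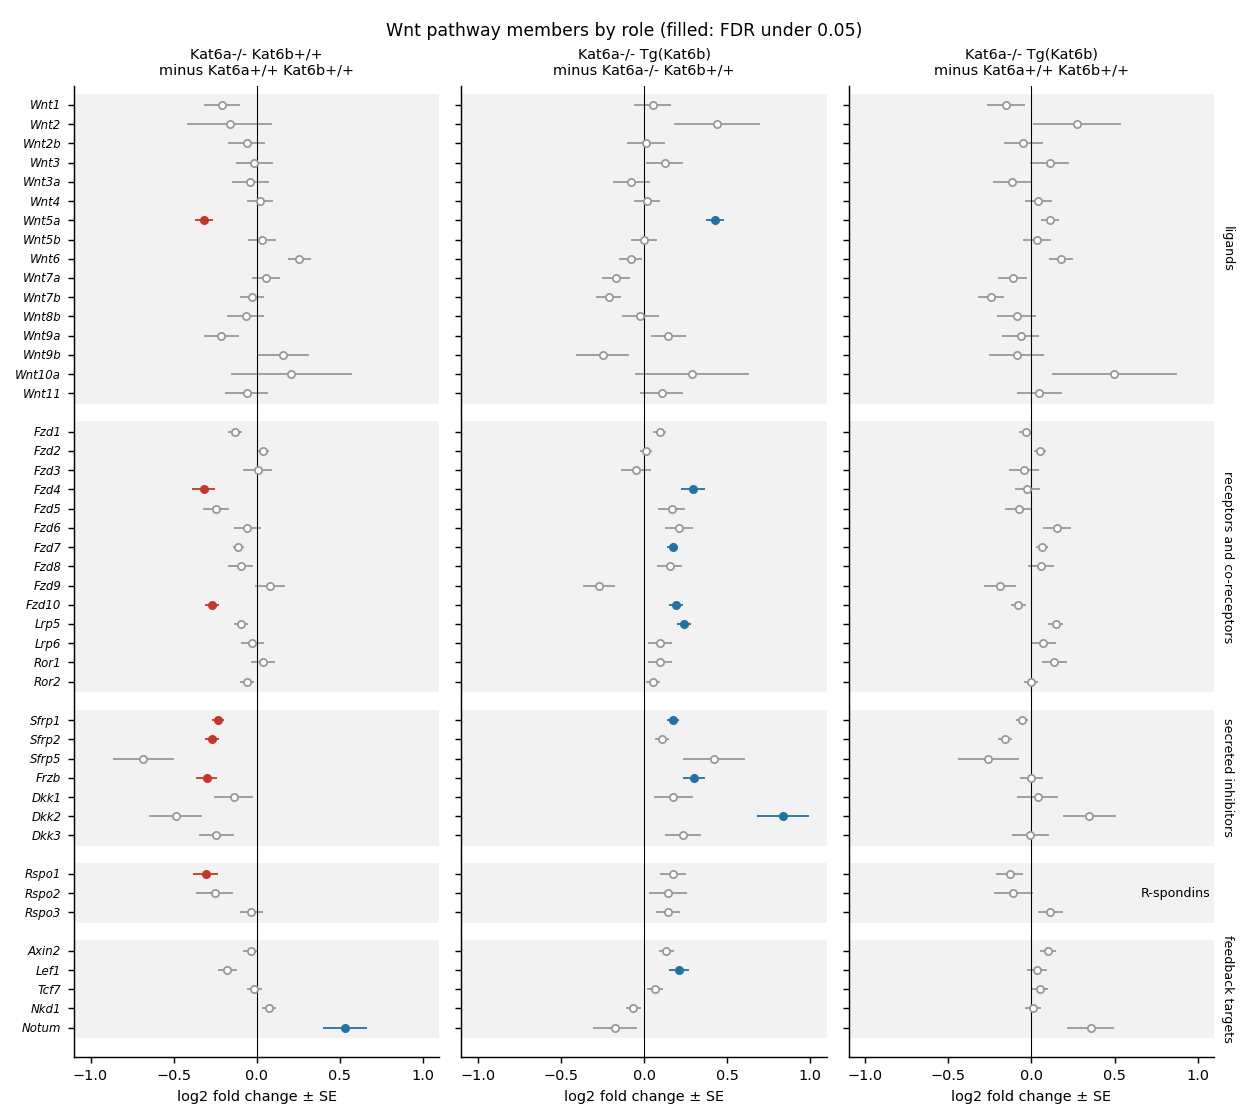
Log2 fold change ± SE of each of the 45 genes, by role, in 3 comparisons (*Kat6a* null vs. wild-type, null transgenic vs. *Kat6a* null and null transgenic vs. wild-type embryos), with filled points for an edgeR FDR under 0.05 (red lower, blue higher) and open grey points for the rest. The secreted inhibitors lie left of 0 without KAT6A and right of 0 with the transgene on the null background, and no point is filled for null transgenic vs. wild-type embryos.

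Of the 3 R-spondins, *Rspo1* fell without KAT6A. R-spondins amplify Wnt signals by way of LGR receptors. *Rspo1* was at 18.7, 16.2, 17.1 and 15.2 CPM in wild-type and at 13.3, 13.97, 13.5 and 13.6 CPM in *Kat6a* null embryos, with no overlap (log2 fold change -0.31 ± 0.08, SE, edgeR FDR = 0.0392). This call was lost in 7 of 11 alternative analyses. It was at 16.9, 17.0, 17.1 and 19.2 CPM in transgenic and at 16.4, 14.8, 15.5 and 14.3 CPM in null transgenic embryos. The latter lay above all *Kat6a* null embryos without passing the test (log2 fold change 0.17 ± 0.08, SE, edgeR FDR = 0.183). *Rspo2* and *Rspo3* had log2 fold changes of -0.25 and -0.03 without KAT6A and of 0.14 each with the transgene, with no call.

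Among the 5 feedback targets, *Notum* rose without KAT6A and *Lef1* rose with the transgene on the null background, while the readouts *Axin2*, *Tcf7* and *Nkd1* gave no call in either comparison. *Notum* was at 6.09, 7.95, 6.83 and 6.11 CPM in wild-type and at 8.69, 11.5, 9.99 and 8.68 CPM in *Kat6a* null embryos, with no overlap (log2 fold change 0.53 ± 0.13, SE, edgeR FDR = 0.0398). It was at 6.73, 7.59, 6.06 and 7.77 CPM in transgenic and at 8.37, 6.98, 10.3 and 8.98 CPM in null transgenic embryos, which overlapped both the wild-type and the null embryos. Antisense genes cover 48.7% of the exon bases of *Notum*, so this rise could include their reads, and its call was lost in 7 of 11 alternative analyses. *Lef1*, a nuclear partner of beta-catenin and itself a target, was at 88.0, 84.1, 81.4 and 68.3 CPM in wild-type and at 76.7, 76.3, 70.8 and 64.8 CPM in *Kat6a* null embryos, which overlapped (log2 fold change -0.18 ± 0.06, SE, edgeR FDR = 0.146). In null transgenic embryos it was at 77.7, 95.6, 79.7 and 96.2 CPM (log2 fold change 0.21 ± 0.06, SE, edgeR FDR = 0.0439), and the females of that genotype were higher than the males. *Lef1* has 16.3% of its exon bases under *Lef1os1*, and its call was lost in 7 of 10 alternative analyses.

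*Axin2*, the most used readout of beta-catenin signalling, was at 93.8, 89.4, 103.5 and 109.3 CPM in wild-type, 107.2, 94.3, 94.8 and 89.8 CPM in *Kat6a* null, 109.5, 107.7, 113.9 and 114.3 CPM in transgenic and 100.1, 106.7, 104.4 and 106.1 CPM in null transgenic embryos. The wild-type and null embryos overlapped, with a log2 fold change of -0.04. *Tcf7* and *Nkd1* had log2 fold changes of -0.01 and 0.07 without KAT6A. *Nkd1* lay between 69.7 and 70.4 CPM in *Kat6a* null embryos. That was above the 65.1 to 68.9 CPM of wild-type and the 65.4 to 68.9 CPM of null transgenic embryos, without a call.

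Against wild-type embryos, neither genotype with the transgene gave an edgeR call among the 45 genes. In null transgenic vs. wild-type embryos 0 genes passed in edgeR, against 0.67% of all tested genes, and 6 had an unadjusted p under 0.05 (1987 of all 15679 genes), with a median log2 fold change of 0.01 against -0.0031 for all genes. DESeq2 and limma-voom also called 0. In transgenic vs. wild-type embryos 0 passed in edgeR, against 0.14% of all genes, and 5 had an unadjusted p under 0.05 (1805 of all 15679 genes). DESeq2 called 1 of the 45 (219 of all genes) and limma-voom 0. The lowest FDR was that of *Axin2* (log2 fold change 0.16 ± 0.05, SE, edgeR FDR = 0.160). A missed threshold does not show that the levels were alike: for *Wnt5a* in null transgenic vs. wild-type embryos the log2 fold change was 0.11, and for *Notum* it was 0.36 ± 0.14 (SE, edgeR FDR = 0.279).

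The interaction asks whether the effect of KAT6A loss differed with and without the transgene. No gene of the 45 passed it in edgeR, against 0.153% of all genes, and 12 had an unadjusted p under 0.05 (2284 of all 15679 genes). DESeq2 called 5 of the 45 (138 of all genes) and limma-voom 0. *Lrp5* came nearest (log2 difference 0.29 ± 0.06, SE, edgeR FDR = 0.0672), followed by *Dkk2* (0.90 ± 0.22, SE, edgeR FDR = 0.108). For *Wnt5a*, *Sfrp1* and *Fzd4* the log2 difference was 0.30, 0.19 and 0.40, each with an edgeR FDR of 0.115. All 7 inhibitors had a positive estimate, where 7815 of all 15679 genes did. The interaction includes the *Kat6a* null embryos, so their low inhibitor values enter it too, and this is not a separate result.

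Between the genotypes that carry the transgene (null transgenic vs. transgenic), only *Lrp5* and *Sfrp2* passed, against 3.41% of all genes. Transgenic vs. *Kat6a* null embryos differ in both *Kat6a* and *Kat6b* and in litter. There, 10 of the 45 genes rose (*Wnt5a*, *Wnt1*, *Fzd5*, *Fzd10*, *Sfrp1*, *Sfrp2*, *Frzb*, *Rspo1*, *Lef1* and *Axin2*), against 5.46% of all genes, and *Notum* fell, against 7.19%. *Wnt1*, a ligand of the dorsal midline of the midbrain and spinal cord, was at 12.9, 10.8, 13.2 and 10.8 CPM against 10.1, 11.2, 8.63 and 7.95 CPM, which overlapped (log2 fold change 0.37 ± 0.11, SE, edgeR FDR = 0.0248). Opposite-strand gene *Wnt10b* covers 20.6% of its exon bases. *Fzd5* was at 15.9, 15.5, 15.7 and 17.5 CPM against 14.3, 13.7, 12.1 and 12.6 CPM, with no overlap (log2 fold change 0.35 ± 0.08, SE, edgeR FDR = 0.00626). *Axin2* had a log2 fold change of 0.20 ± 0.05 (SE, edgeR FDR = 0.00721). With litter as a block none of the 11 passed, where 8 of 15533 genes passed in all, and the *Axin2* log2 fold change was 0.01.

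Outside the 45 genes, a list of 67 further pathway genes held 66 that were tested. It covered cytoplasmic signalling, nuclear effectors, planar cell polarity, receptor turnover and other ligands, modulators and targets. In *Kat6a* null vs. wild-type embryos only *Nkd2*, an inhibitor that binds Dishevelled, passed, where 1.88% of all tested genes did. *Nkd2* fell, from 37.9, 34.4, 34.4 and 35.7 CPM to 28.3, 28.6, 30.6 and 28.5 CPM with no overlap (log2 fold change -0.30 ± 0.06, SE, edgeR FDR = 0.00979), and 13 of the 66 had an unadjusted p under 0.05 (2387 of all 15679 genes). In null transgenic vs. *Kat6a* null embryos *Cdx4*, a posterior patterning factor, rose and *Apc2*, a relative of the beta-catenin destruction complex scaffold APC, fell (log2 fold changes 0.60 and -0.49). *Cdx4* ran from 4.13 to 13.6 CPM in the former and from 1.83 to 7.30 CPM in the latter, which overlapped. Of all genes, 7.14% passed in this comparison. In transgenic vs. wild-type embryos only *T*, the brachyury factor of tail bud mesoderm, rose (log2 fold change 0.59 ± 0.11, SE, edgeR FDR = 0.0423), from 12.9, 20.7, 12.3 and 8.03 CPM to 21.5, 18.8, 16.7 and 17.3 CPM, which overlapped. There 0.14% of all genes passed. In null transgenic vs. transgenic embryos *Bcl9l*, *Amer1* and *Prickle2* rose (log2 fold changes 0.32, 0.24 and 0.42), where 2.28% of all genes rose. In transgenic vs. *Kat6a* null embryos 7 rose and 9 fell, against 5.46% and 7.19% of all genes. Those that rose were *Wnt16*, *Apcdd1*, *Cer1*, *Draxin*, *Nkd2*, *T* and *Cdx4*, and those that fell were *Lgr6*, *Apc*, *Apc2*, *Gsk3b*, *Dact1*, *Bcl9*, *Bcl9l*, *Celsr1* and *Celsr2*. In null transgenic vs. wild-type embryos 0 of the 66 passed in edgeR, against 0.67% of all genes, and 11 had an unadjusted p under 0.05 (1987 of all genes). The interaction also gave 0, against 0.153% of all genes, with 9 at an unadjusted p under 0.05 (2284 of all genes).

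The 45 genes include 3 pairs of adjacent ligands: *Wnt6* and *Wnt10a* on chromosome 1, 5700 bases apart, *Wnt3a* and *Wnt9a* on chromosome 11, 15983 bases apart, and *Wnt9b* and *Wnt3* on chromosome 11, 24321 bases apart. Without KAT6A the log2 fold changes were 0.26 and 0.21, -0.04 and -0.21, and 0.16 and -0.01, none past the test. The other genes that passed lie on chromosome 3 (*Sfrp2* at 83673481 to 83681623, *Dkk2* at 131790336 to 131886065 and *Lef1* at 130903919 to 131018005) and chromosome 1 (*Fzd7*, 59521269 to 59534685). *Frzb* lies on chromosome 2 (80242313 to 80278304), *Rspo1* on chromosome 4 (124879876 to 124902892), *Notum* on chromosome 11 (120541446 to 120552019) and *Lrp5* on chromosome 19 (3634821 to 3736643). Annotated opposite-strand exons cover 12.0% of the exon bases of *Fzd7*, 3.78% of *Frzb* and 2.65% of *Lrp5*, and none of *Dkk2* or *Rspo1*.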

How the data were processed

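RNA from 16 whole embryos was sequenced as paired-end reads. The authors aligned the reads to mm39 with Rsubread and deposited 1 table of raw counts per gene for each embryo. Their processing notes also name featureCounts and bcl2fastq. Annotation release and strand setting of the counting are not given in the sources used here. All count columns mapped to a labelled embryo, so 0 columns were left out.

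Genes with sufficient counts in the design (minimum count 10, minimum total 15) were kept, TMM-normalised and fitted over all 16 embryos with edgeR 4.0.16 in R 4.3.3 (quasi-likelihood test), with 2 surrogate variables from sva 3.50.0 as covariates. The first surrogate variable followed the sex of the embryos. FDR values were adjusted by Benjamini-Hochberg over all 15679 tested genes, in each of 7 contrasts. Alternatives used DESeq2 1.42.0, limma 3.58.1, other scalings, filters and covariates, a litter or replicate block, and omission of each embryo. The code was tested on simulated data. No pair of embryos of the same genotype agreed within sampling noise (chi-square per degree of freedom at least 1.83). The closest pair, at 1.83, was replicates 2 and 4 of the null transgenic embryos, labelled as from litters 483 and 498. All other pairs were at 3.51 or above. Embryos are separate animals but share litters, and the depth sets the counting error of each gene.

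The 45 genes and the other lists were chosen with earlier results of these data known. Genes past an FDR of 0.05 in any contrast are named with values and the rest are summarised. Gene positions came from GENCODE vM39 on GRCm39. Promoters came from RefSeq on GRCm38.p6.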

Additional observations from a re-analysis of the deposited data

Results flagged for a closer look

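In each genotype, the highest or lowest of the 4 embryos was compared with its gap to the nearest other embryo for all 45 genes. In 14 of 180 gene and genotype groups (7.78%) this gap took up more of the whole range than Dixon's test allows at the 95% level, where chance gives about 1 in 20 groups. Replicate 1 of the transgenic embryos stood apart for 3 genes, being low for *Wnt2b* (4.92 CPM against 6.14 to 6.33), *Wnt9b* (2.81 against 3.32 to 3.41) and *Lrp6* (117.4 against 145.6 to 149.9). In the same genotype, replicate 2 was low for *Frzb* (21.3 against 24.3 to 24.5) and replicate 4 was high for *Rspo1* (19.2 against 16.9 to 17.1). Among wild-type embryos, replicate 1 was low for *Wnt4* (15.2 against 18.3 to 18.8) and high for *Sfrp1* (265.3 against 251.6 to 253.6), and replicate 4 was high for *Fzd7* (192.1 against 185.1 to 185.6). Replicate 4 of the *Kat6a* null embryos was high for *Fzd4* (24.8 against 22.3 to 22.7) and *Sfrp2* (112.2 against 105.2 to 106.2), and so was nearer to the wild-type embryos than its group. In null transgenic embryos, replicate 3 was high for *Dkk2* (12.8 against 6.71 to 7.06) and *Wnt7b* (21.7 against 19.78 to 20.01). Replicate 2 was low there for *Wnt9a* (5.69 against 6.55 to 6.68) and replicate 1 for *Fzd8* (23.2 against 25.4 to 25.7).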

How the results depend on the processing

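None of the 30 log2 fold changes called among the 45 genes reversed in the alternatives run for them. Of 8 genes called in *Kat6a* null vs. wild-type embryos, 4 remained without surrogate variables, with 1 surrogate variable or with sex as covariate (*Wnt5a*, *Sfrp1*, *Sfrp2* and *Fzd10*). With only the genotypes compared 5 genes were called, and 0 with litter as a block. Calls over all tested genes also dropped, from 295 in the main fit to 95, 96 and 91 in the first of these fits. They were 85 with only the genotypes compared and 18 with litter as a block. Omitting 1 embryo gave 4 to 10 (137 to 432 over all genes). It gave 4 when replicate 1 or 2 of the *Kat6a* null embryos was left out and 5 without its replicate 3. For null transgenic vs. *Kat6a* null the count of 9 became 6 without surrogate variables, with 1 surrogate variable or with sex as covariate. *Frzb*, *Fzd4* and *Lef1* were lost there, and the 1119 calls over all genes became 614, 606 and 589. The other alternatives gave 8 to 10, and omission gave 7 to 11. *Wnt5a*, *Fzd7*, *Fzd10*, *Lrp5*, *Sfrp1* and *Dkk2* were called in 10 of 10 alternatives and 16 of 16 omissions, *Lef1* in 3 and 9. For null transgenic vs. wild type, requiring 10 counts in every embryo gave 1 gene (*Sfrp2*), and omission 0 to 1. For transgenic vs. wild type DESeq2 gave 1 gene, and omission 0. Between the genotypes with the transgene the count of 2 became 1 with 10 counts in every embryo and 0 with only these genotypes. Over all genes the count went from 535 to 408 and 265. Omission gave 0 to 3, with 0 without replicate 4 of the transgenic embryos or replicate 1, 2 or 3 of the null transgenic embryos. In this comparison *Wnt7b* (lower) took the place of *Lrp5* without surrogate variables. With 1 surrogate variable or sex as covariate, *Wnt7b* and *Fzd10* (both lower) did. For transgenic vs. *Kat6a* null the litter block gave 0 in place of 11 (8 in place of 1984 over all genes), and omission 10 to 13. DESeq2 gave 5 genes in the interaction, and omission 0 to 2. A litter block could not be fitted for null transgenic embryos. With the replicate number as a block 6 genes were called in the first comparison (260 over all genes). It gave 8 with the transgene on the null background (944) and 1 between the genotypes with the transgene (286). The numbers do not pair the embryos (correlation of deviations -0.30 to 0.27 over 24 pairs, 10 over 0.1). The cause of these changes was not tested. Low counts limit *Wnt10a*, with as few as 7 in an embryo.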
